A study of Saccharomyces cerevisiae with 6 samples.

Results

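The 18S rRNA of a yeast (Saccharomyces cerevisiae) strain given an artificial guide RNA for the 25S rRNA was compared with the 18S rRNA of wild type. The guide is aimed at 25S, so 18S was the rRNA that it does not target, and the comparison asks whether the methylation of 18S differed between the samples. All 1800 positions of mature 18S rRNA entered, of 5196 positions of mature 18S and 25S rRNA, in 2 of the 6 samples of the series. The knock-in sample was whole-cell RNA of strain YWD680, with a plasmid that encodes an artificial small nucleolar RNA (snoRNA) directed at U2954 of 25S rRNA. The wild-type sample was gel-purified small-subunit rRNA of strain BY4741. Strain and kind of RNA therefore differed together and cannot be told apart, and the sources used here name no other allele, growth condition or agent. Each group held 1 sample, so that no p-value was calculated. The knock-in sample came as separate files, called run 1 and run 2, which added up to the combined data at 1800 of 1800 positions. The labels do not say whether they are sequencing runs or library preparations, and they were counted as 1 sample.

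Methyl groups on the ribose of rRNA are placed by box C/D snoRNAs, which pair with the rRNA and direct the methyltransferase Nop1 to chosen nucleotides. In 18S rRNA such sites lie mostly in the conserved core around the decoding centre and the sites of tRNA binding. A second class, the H/ACA snoRNAs, directs the conversion of uridine to pseudouridine, and a few bases are modified by stand-alone enzymes. In RiboMeth-seq the RNA is cleaved at random and the ends of fragments are counted at each bond. A ribose methyl group protects its bond, so that a methylated nucleotide has few read ends compared with its neighbours.

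The score of a position was 1 minus the ratio of its read ends to the weighted mean of 6 neighbours on each side, with negative values set to 0. It lies near 0 at an unprotected bond and near 1 at a fully protected one. Intervals given with scores are 95% counting intervals. They assume independent reads, although the reads carry no molecular identifiers, and they cover no variation between cultures or libraries. The list held 18 ribose methylation sites, 13 pseudouridines and 6 base-modified nucleotides of 18S rRNA, and the other 1751 scored positions were called unlisted. Of the list, Gm562, ac4C1280 and ac4C1773 were not in the deposited annotation of modifications. The 18S rRNA occupies XII:465070-466869 on the minus strand, in the files' own coordinates and with no build named in the sources used here. All positions are in the non-coding 18S rRNA gene and are counted from its 5' end.

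The knock-in sample held 517732 read ends on 18S rRNA, 156998 in run 1 and 360734 in run 2, and the wild-type sample held 283160. The median position had 217 read ends in the knock-in sample and 140 in wild type. Read ends were spread less evenly in the knock-in sample, with an SD between positions of 1.15 times the mean, against 0.555 times in wild type. Within the knock-in sample this ratio was 1.58 in run 2 and 0.721 in run 1. The 18 positions with the most read ends took 9.19% of all 18S read ends in the knock-in sample, 12.7% in run 2 and 3.85% in run 1, and 3.11% in wild type. The score at unlisted positions moved with this unevenness. Its median was 0.172 in the knock-in sample, 0.245 in run 2 and 0.0788 in run 1, and 0.0354 in wild type.

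The target of the artificial guide, U2954 of 25S rRNA at XII:461365, was read first as a check of the label. It scored 0.894 (0.830 to 0.939, 17 read ends) in the knock-in sample, with 0.894 in each run. Run 1 had only 2 read ends there, with an interval of 0.611 to 0.987, and run 2 had 15. The wild-type 25S library scored 0.376 (0.275 to 0.466, 181 read ends) at the same nucleotide. The knock-in label therefore matched a nucleotide that was protected in both runs, with a wide interval in run 1.

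The known ribose methylation sites of 18S rRNA stood out in both samples, with mostly slightly lower scores in the knock-in sample. The median score over the 18 ribose sites was 0.929 in the knock-in sample, 0.917 in run 1 and 0.930 in run 2, and 0.960 in wild type. Scores ranged from 0.710 at Am420 to 0.992 at Am541 in the knock-in sample, and from 0.771 at Am100 to 0.987 at Gm1428 in wild type. To count as detected, a site had to exceed the 99th percentile of its library's unlisted scores, which was 0.819 in the knock-in sample and 0.642 in wild type. In the knock-in sample 16 of 18 sites were detected, all but Am420 and Um578, and in wild type all 18 were. At least 0.9 was reached by 11 sites in the knock-in sample and by 16 in wild type. The sites had 2 to 57 read ends in the knock-in sample and 1 to 31 in wild type, against flanking means of 197 to 915 and of 51.3 to 276 read ends.

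**Figure D1:**
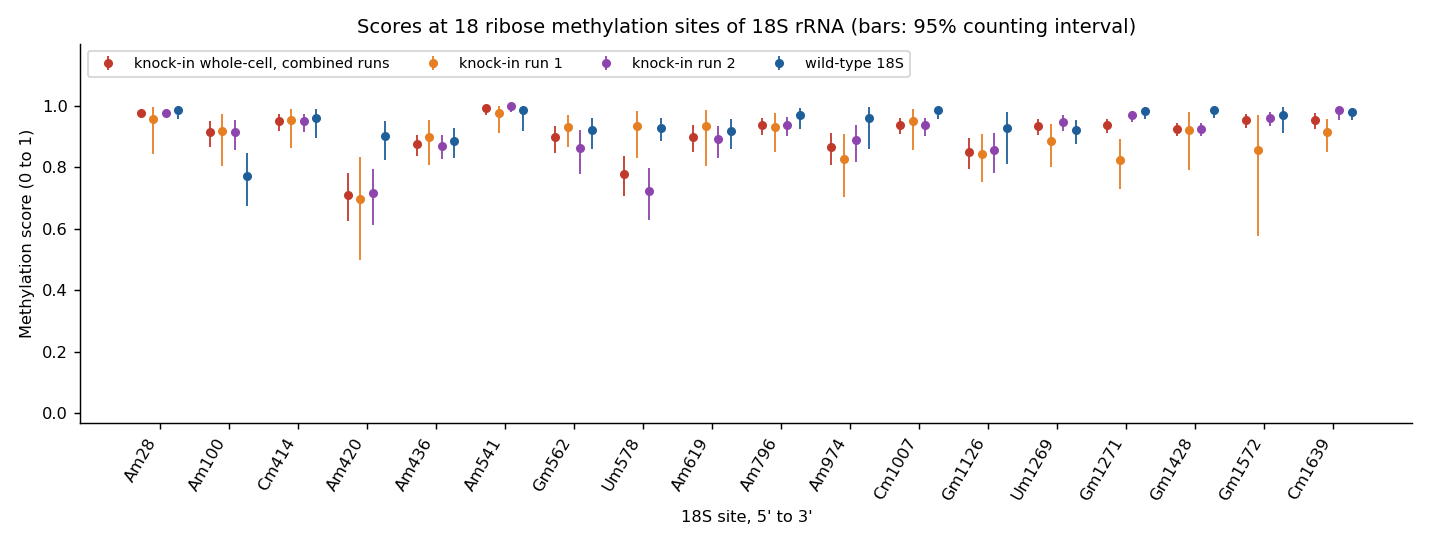
Methylation score (0 to 1) at the 18 ribose methylation sites of 18S rRNA in 5' to 3' order, for the knock-in sample with both runs combined, for run 1 and run 2 apart, and for wild type; points are scores and bars are 95% counting intervals. Most points of both samples lie in the upper part of the scale, and those furthest below the rest are the knock-in sample at Am420 (0.710) and Um578 (0.778) and wild type at Am100 (0.771).

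A difference in score was called when its 95% counting interval excluded 0 and its size exceeded 2 SD of run 1 minus run 2 over the 18 ribose sites, a limit of 0.151. By this rule 1 of 18 ribose sites (5.56%) was lower in the knock-in sample, against 7.25% of unlisted positions. The share called lower was no larger than that of unlisted positions, but the shares are not like for like. None was called higher, against 33.4% of unlisted positions, but at 17 of the 18 sites, all except Am100, the wild-type score was too near 1 for a rise past the limit, so that nothing is read from this 0. The wild-type score was 0 at 45.2% of unlisted positions, where no lower call was possible, while the lowest at a ribose site was 0.771. The knock-in score was 0 at 36.3% of unlisted positions. The median difference over the ribose sites was -0.0249, with 15 sites lower and 3 higher in the knock-in sample, and that over unlisted positions was 0.0235. The counting interval alone lay below 0 at 5 sites (Am420, Um578, Cm1007, Gm1271 and Gm1428) and above 0 at 1 site (Am100). Both runs were below wild type at 10 sites and both above it at 1. The median difference stayed below 0 under all alternatives tried, from -0.0783 with the median of the neighbours in place of their mean to -0.0193 with 5' ends alone. Each run on its own called 2 sites lower, Am420 and Gm1271 in run 1 and Am420 and Um578 in run 2.

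The runs of the knock-in sample differed from each other at these sites too, with an SD of 0.0755. Their median absolute difference was 0.0273, and 11 of 18 sites differed by 0.05 or less. The largest run difference was 0.211, at Um578. It exceeded the called difference at Am420, and it is part of the SD that sets the limit. No limit without Um578 was calculated.

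**Figure D2:**
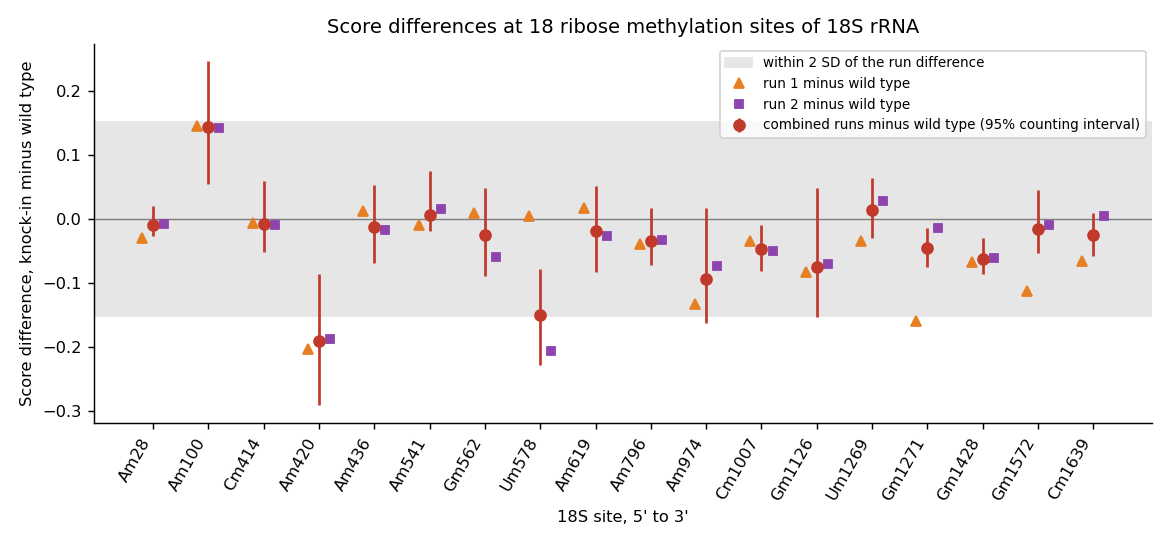
Score difference, knock-in minus wild type, at each of the 18 ribose sites in 5' to 3' order; circles with bars are the combined runs with their 95% counting interval, triangles are run 1 and squares run 2, and the grey band marks differences within 2 SD of the run difference (0.151). Am420 lies below the band in both runs, Um578 in run 2 alone and Gm1271 in run 1 alone (-0.159), and Am100 lies just inside its upper edge in both runs.

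Am420 at XII:466450, guided by snR52, was the site called lower. It had 57 read ends in the knock-in sample, 15 in run 1 and 42 in run 2, and 11 in wild type. The score was 0.710 (0.623 to 0.781) in the knock-in sample, 0.698 in run 1 and 0.715 in run 2, and 0.902 (0.824 to 0.951) in wild type. The runs lay close together, and both were below the lower bound of wild type. The difference was -0.191 (-0.291 to -0.0858). Scaled to all 18S read ends, in ppm (read ends per 1000000 read ends on 18S rRNA), the site had 110.1 ppm in the knock-in sample, 95.5 in run 1 and 116 in run 2, and 38.8 in wild type. From 5' ends alone the score was 0.600 in the knock-in sample (0.617 in run 1 and 0.582 in run 2) and 0.896 in wild type. From 3' ends alone it was 0.771 in the knock-in sample and 0.906 in wild type, but the runs lay on both sides of wild type, with 0.924 in run 1 from 1 read end and 0.754 in run 2 from 28. With 3' ends alone the difference of -0.134 no longer exceeded the run limit of that setting, 0.242.

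The whole-cell library of a knock-out strain and the wild-type 25S library also scored Am420 above the knock-in sample. The knock-in 25S sample and the sample of chromatin-associated RNA were not scored here. The knock-out strain YWD486, in which a plasmid with the snR67-snR53 region carries a substitution that prevents methylation of 25S G2619, was also sampled as whole-cell RNA. It scored 0.903 (0.825 to 0.952) with 11 read ends. The 18S reads that are present in the wild-type 25S library gave 0 read ends at the site and a score of 1.000 (0.768 to 1.000). The authors' deposited Score A, a different statistic, was 0 in the combined knock-in file, 0.297 in run 1 and 0 in run 2, and 0.676 in wild type. The same guide, snR52, also directs methylation of Um2921 in 25S rRNA. That site scored 0.990 (0.965 to 0.999) in the knock-in sample and 0.991 (0.974 to 0.998) in the wild-type 25S library, with overlapping intervals.

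Um578 at XII:466292, guided by snR77, came next in size and missed the limit. It had 50 read ends in the knock-in sample, 4 in run 1 and 46 in run 2, and 16 in wild type. The score was 0.778 (0.706 to 0.836) in the knock-in sample, 0.933 in run 1 and 0.722 in run 2, and 0.929 (0.884 to 0.959) in wild type. Run 2 alone was low, and run 1 was level with wild type. The difference of -0.151 (-0.228 to -0.0775) was smaller than the limit only in the fourth decimal, -0.1505 against 0.1510. The run difference of Um578 itself enters that limit. From 3' ends the score was 0.622 in the knock-in sample and 0.984 in wild type. From 5' ends it was 0.923 in the knock-in sample and 0.907 in wild type, so that the difference rested on 3' ends. The knock-out scored 0.990.

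Am100 at XII:466770, guided by snR51, had the largest difference in the other direction. It had 19 read ends in the knock-in sample, 5 in run 1 and 14 in run 2, and 31 in wild type. The score was 0.914 (0.865 to 0.948) in the knock-in sample, 0.916 in run 1 and 0.913 in run 2, and 0.771 (0.673 to 0.845) in wild type. Both runs lay above the upper bound of wild type. The difference of 0.143 (0.0548 to 0.247) stayed under the limit, although the runs differed by only 0.0024 at this site. The knock-out scored 0.816, and the 18S reads of the wild-type 25S library scored 0.922 from 1 read end, with an interval of 0.557 to 0.998 that held the scores of both samples. Against that library the difference was -0.0076. The partner site of snR51 in 25S rRNA, Um2729, scored 0.859 (0.779 to 0.916) in the knock-in sample and 0.940 (0.902 to 0.966) in the wild-type 25S library, the reverse order of Am100 with intervals that overlapped.

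The counts behind these 3 sites can be read from their neighbours. At Am420 the knock-in sample had more read ends at the site and 1149 ppm at 4 nucleotides downstream, against 343 in wild type, and 359 ppm at 1 nucleotide downstream, against 657. At Um578 every neighbour except the sixth downstream was lower than in wild type, with 261 against 1028 ppm at 2 nucleotides downstream and 509.9 against 1239.6 ppm at 2 nucleotides upstream. At Am100 the site itself had 36.7 ppm in the knock-in sample and 109 in wild type, while 1 neighbour upstream had 917 and 396.

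**Figure D3:**
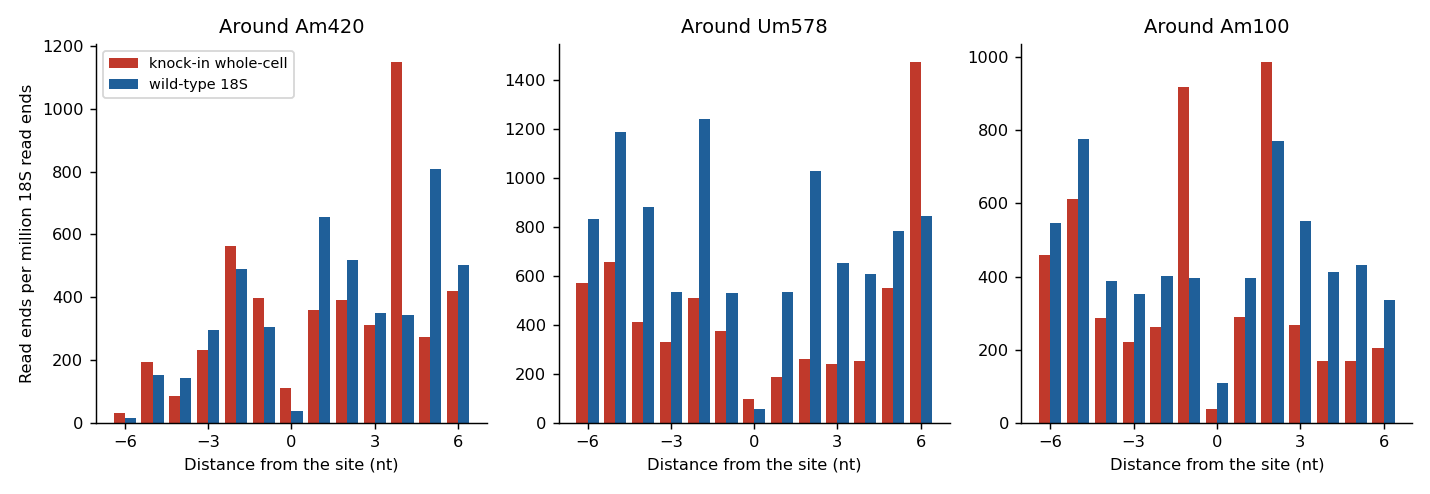
Read ends, in ppm of all 18S read ends, at each position from 6 nt before to 6 nt after Am420, Um578 and Am100, with the knock-in sample on the left of each pair of bars and wild type on the right; each panel has its own vertical scale from 0. The bar at distance 0 is low in both samples at each site, and it is higher in the knock-in sample at Am420 (110.1 against 38.8) and Um578 (96.6 against 56.5) and lower at Am100 (36.7 against 109).

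Am974 at XII:465896, guided by snR54, had the fourth largest difference. It had 29 read ends in the knock-in sample, 13 in run 1 and 16 in run 2, and 2 in wild type. Its score was 0.867 (0.808 to 0.911) in the knock-in sample, 0.828 in run 1 and 0.887 in run 2, and 0.961 (0.859 to 0.995) in wild type. Both runs were below the wild-type score, and the difference of -0.0945 (-0.162 to 0.0170) had an interval that included 0.

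At the other end stood the 4 sites that differed least. Am541 at XII:466329, guided by snR41, scored 0.992 in the knock-in sample (0.976 and 1 in the runs, from 2 and 0 read ends) and 0.985 in wild type from 1 read end, a difference of 0.0068 (-0.0188 to 0.0755). Cm414 at XII:466456 is guided by U14, a snoRNA that is also needed for the cleavages that release 18S rRNA from its precursor. It scored 0.950 in the knock-in sample (0.953 and 0.949 in the runs) and 0.959 in wild type, a difference of -0.0086 (-0.0520 to 0.0597). Am28 at XII:466842, guided by snR74, scored 0.976 in the knock-in sample (0.957 and 0.977 in the runs) and 0.986 in wild type, a difference of -0.0096 (-0.0265 to 0.0196). Am436 at XII:466434, guided by snR87, scored 0.874 in the knock-in sample (0.898 and 0.868 in the runs) and 0.886 in wild type, a difference of -0.0119 (-0.0681 to 0.0533). At each of the 4 sites the interval of the difference stayed inside the limit of 0.151. The small size depended on the setting at some of them. With the median of the neighbours in place of their mean, the difference was -0.143 at Am436 and -0.0546 at Am28. In that setting it was -0.0336 at Cm414 and 0.0007 at Am541, and the limit was 0.198.

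Cm414 and Am420 are 6 nucleotides apart and thus share neighbours in the score, yet only Am420 was called. Gm1126, the other 18S target of snR41, scored 0.851 in the knock-in sample (0.843 and 0.856 in the runs) and 0.926 in wild type, a difference of -0.0756 (-0.153 to 0.0483) whose interval included 0. Um1269 (snR55) scored 0.933 in the knock-in sample (0.886 and 0.948 in the runs, on both sides of wild type) and 0.92 in wild type, a difference of 0.0135 (-0.0295 to 0.0639) whose interval included 0. Its near neighbour Gm1271 (snR40) scored 0.936 in the knock-in sample and 0.982 in wild type. Run 1 alone was called lower at Gm1271, with 0.823, while run 2 scored 0.968.

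Of the remaining sites, Gm1428 (snR56) was the one with the highest wild-type score. It scored 0.925 in the knock-in sample (0.919 and 0.925 in the runs) and 0.987 in wild type, a difference of -0.0618 (-0.0864 to -0.0303) that was under the limit. Cm1007 (snR79) scored 0.938 in the knock-in sample and 0.985 in wild type, a difference of -0.0470 (-0.0806 to -0.00977). Cm1639 (snR70), in the decoding region, scored 0.954 in the knock-in sample and 0.980 in wild type. The other 4 sites were Gm562, Am619 (snR47), Am796 (snR53) and Gm1572 (snR57), whose differences lay between -0.0348 and -0.0154. Gm562, which is not in the deposited annotation, scored 0.897 in the knock-in sample (0.931 and 0.863 in the runs) and 0.922 in wild type. By position, the median difference was -0.0107 over the 8 sites from 1 to 600, -0.0470 over the 5 sites from 601 to 1200 and -0.0252 over the 5 sites from 1201 to 1800.

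Pseudouridines do not protect the bond by a ribose methyl group, and their scores describe only a shortage of read ends. The median over the 13 sites was 0.705 in the knock-in sample, 0.654 in run 1 and 0.729 in run 2, and 0.577 in wild type. The median difference was 0.0737, with 11 sites higher in the knock-in sample, beside 0.0235 over unlisted positions. Against the 18S reads of the wild-type 25S library, which held 30674 read ends, the median difference had the opposite sign, -0.0129. Called higher were 5 of 13 (38.5%), close to the 33.4% of unlisted positions, and called lower was 1 of 13 (7.69%), close to 7.25%. The runs differed far more here than at the ribose sites, with an SD of run 1 minus run 2 of 0.240. With a limit of 2 SD of this class's own run difference, 0.481, none of the 13 was called in either direction.

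The 4 pseudouridines with the highest wild-type scores each had a difference whose interval included 0. Psi1181 (snR85) scored 0.888 in the knock-in sample (0.821 and 0.901 in the runs) and 0.836 in wild type. Psi211 (snR49) scored 0.855 in the knock-in sample (0.654 and 0.883 in the runs) and 0.781 in wild type. Psi120, also guided by snR49, scored 0.705 in the knock-in sample (0.709 and 0.701 in the runs) and 0.727 in wild type. Psi999 (snR31) scored 0.695 in the knock-in sample (0.737 and 0.677 in the runs) and 0.627 in wild type.

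The 6 pseudouridines past the limit of the ribose sites were chosen for naming after their values were seen. Psi302, the third site of snR49, had the largest difference of any listed nucleotide. It had 36 read ends in the knock-in sample, 16 in run 1 and 20 in run 2, and 118 in wild type, and scored 0.830 (0.620 and 0.882 in the runs) in the knock-in sample and 0.366 in wild type. The knock-out scored 0.516 and the 18S reads of the wild-type 25S library 0.758. Psi766 (snR161) scored 0.852 in the knock-in sample and 0.577 in wild type, and Psi466 (snR189) scored 0.838 and 0.607. Both runs were above wild type at these 3 sites. At Psi106 (snR44) the knock-in sample scored 0.645 and wild type 0.455, and at Psi1415 (snR83) the knock-in sample scored 0.663 and wild type 0.50. At Psi1415 the runs lay on both sides of wild type, with 0.382 and 0.729. Psi759 (snR80) was called lower, with 0 in the knock-in sample and 0.214 in wild type. Run 1 scored 0.631 there from 32 read ends and run 2 scored 0 from 570, so that the call went opposite ways in the runs.

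**Figure D4:**
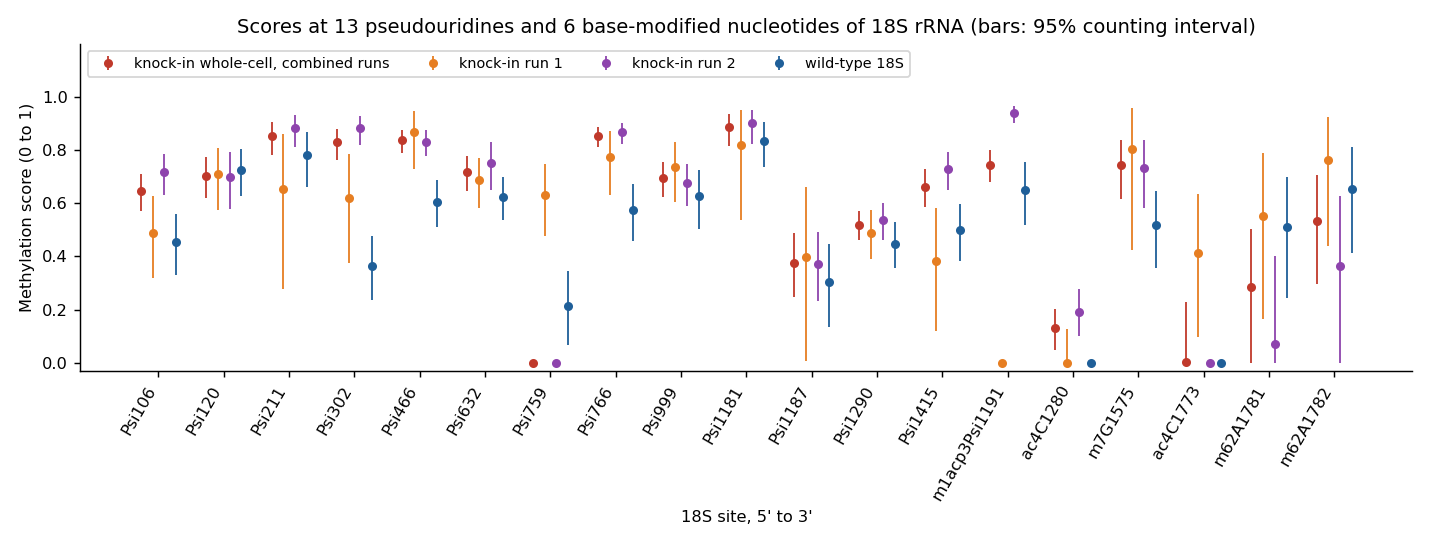
Score (0 to 1) at the 13 pseudouridines and the 6 base-modified nucleotides of 18S rRNA in 5' to 3' order within each class, for the knock-in sample with both runs combined, for run 1 and run 2 apart, and for wild type; bars are 95% counting intervals. The runs lie far apart at Psi759 (0.631 and 0) and m1acp3Psi1191 (0 and 0.941), further than the knock-in sample and wild type at any listed site.

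Of the 6 base-modified nucleotides, 4 scored higher and 2 lower in the knock-in sample. The runs disagreed most in this class, with an SD of run 1 minus run 2 of 0.544. At m1acp3Psi1191, a hypermodified uridine in the loop that meets the tRNA in the P site, the score was 0.746 in the knock-in sample, 0 in run 1 and 0.941 in run 2, and 0.652 in wild type. The nucleotide m7G1575, methylated by Bud23, scored 0.745 in the knock-in sample (0.806 and 0.732 in the runs) and 0.517 in wild type. It was the 1 of 6 (16.7%) past the limit of the ribose sites, and was called higher, beside 33.4% of unlisted positions. With a limit of 2 SD of this class's own run difference, 1.09, none was called. The adjacent dimethyladenosines made by Dim1 late in 18S maturation scored 0.285 in the knock-in sample and 0.511 in wild type at m62A1781, and 0.535 and 0.655 at m62A1782, with intervals of the differences that included 0. At m62A1781 run 1 scored 0.552 and run 2 scored 0.0718, and at m62A1782 run 1 scored 0.763 and run 2 scored 0.366, so that run 1 was above wild type at both and run 2 below. Their surroundings were covered unequally, since the mean count within 20 nucleotides of m62A1781 was 0.627 times the 18S mean in the knock-in sample and 0.237 times in wild type. The cytidines acetylated by Kre33 scored low in the knock-in sample and 0 in wild type, 0.129 and 0 at ac4C1280 and 0.0034 and 0 at ac4C1773. At ac4C1773 run 1 scored 0.412 and run 2 scored 0.

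Along the whole of 18S rRNA the share of read ends at a position was compared by its log2 ratio, with 1 read end added to each count, at the 1779 positions with at least 10 read ends in each sample. In the knock-in sample 153 positions (8.6%) were more than 2-fold higher and 267 (15%) more than 2-fold lower. The median log2 ratio was -0.29, and after scaling to that median 234 were higher and 136 lower. Higher positions thus made up 36.4% of those past 2-fold with the first scaling and 63.2% with the second, so that no direction held for both. Run 1 against run 2 gave 807 positions past 2-fold (46.9%), more than the knock-in sample against wild type (420, 23.6%). Against the knock-out 16.7% were past 2-fold. As a description over 1800 positions of the same molecule, whose sequence both axes share, Pearson's r of the log2 counts was 0.633 between the knock-in sample and wild type, 0.459 for run 1 and 0.589 for run 2 against wild type, and 0.334 between the runs.

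Past 2-fold in the same direction in both runs, with scaling to the 18S sum, were 49 positions higher and 122 lower. With that scaling the median log2 ratio to wild type was -0.028 in run 1 and -0.507 in run 2. The counts were not repeated after scaling to the median, so that no direction is read from them. Of the positions past 2-fold in both runs, position 376 had the highest log2 ratio, 3.18. It had 3197 ppm in the knock-in sample (719.8 in run 1 and 4275 in run 2) and 349.6 in wild type. Next came positions 1222, 519, 982 and 1123, with log2 ratios of 3.0, 2.85, 2.70 and 2.61. In all 5 run 2 was well above run 1, which stood just over 2-fold at 376, 1222 and 519, with log2 ratios of 1.04, 1.07 and 1.08. The lowest was position 302, the pseudouridine above, with 69.5 ppm in the knock-in sample (102 in run 1 and 55.4 in run 2) and 417 in wild type, a log2 ratio of -2.56. Positions 474, 331, 300 and 19 followed at -2.41, -2.39, -2.36 and -2.31. At these 4 the runs lay closer together than at the 5 highest, and at position 19 they were nearly equal, with 95.5 and 91.5 ppm against 466 in wild type.

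At the ribose sites counts were too low for most of such ratios, and 7 of 18 had at least 10 read ends in each sample. Am420 was more than 2-fold higher in the knock-in sample and Am100 more than 2-fold lower, beside 8.6% higher and 15% lower over all positions tested. Of the 13 pseudouridines Psi759 was more than 2-fold higher and 4 were lower, Psi302, Psi466, Psi632 and Psi1181. After scaling to the median, Am420, Um578 and Psi759 were past 2-fold higher, and of these lower sites Am100, Psi302 and Psi466 stayed past 2-fold. Since the split of all positions turns with the scaling, no direction is read for either class.

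Run 2 of the knock-in sample carried sharp peaks, most of which were below the peak threshold in run 1 and wild type. A peak was defined, after the data had been seen, as a position with at least 5 times the median of the 51 positions around it. The combined knock-in data had 37 peaks, run 2 had 62, run 1 had 6 and wild type had 0, and the knock-out had 13. All 37 were peaks in run 2 and none in run 1, and 36 were more than 2-fold above wild type. The knock-out had a peak at 10 of the 37 positions. At least 2 times the local median was reached at 34 of the 37 in the knock-out and at 3 in wild type. The highest was position 25, with 5634 read ends in run 2, 5369 of them 3' ends of fragments, 5 read ends in run 1 and 240 in wild type. Position 1090 had 4466 read ends in run 2, 120 in run 1 and 211 in wild type. Position 1426, 2 nucleotides from Gm1428, had 4595 read ends in run 2, 43 in run 1 and 313 in wild type. A peak within 6 nucleotides enters the neighbour mean of a score, and 7 ribose sites and 4 pseudouridines had one. The pseudouridines were Psi106, Psi302, Psi466 and Psi766, all of them called higher at the limit of the ribose sites. Run 1, which had none of the 37 peaks, on its own called Psi466 and Psi766 higher, and not Psi106 or Psi302. Run 2 on its own called all 4 higher. Psi1415, also called higher in the combined runs, had its nearest peak 11 nucleotides away. The ribose sites were Am28, Am436, Am541, Am796, Cm1007, Gm1428 and Gm1572. Of the sites that differed least, Am28 and Am436 had a peak 1 nucleotide away and Am541 had one 2 nucleotides away. Am420 and Um578 had their nearest peak 7 and 9 nucleotides away, and Am100 7 nucleotides away. The part of the peaks in the score differences was not tested.

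**Figure D5:**
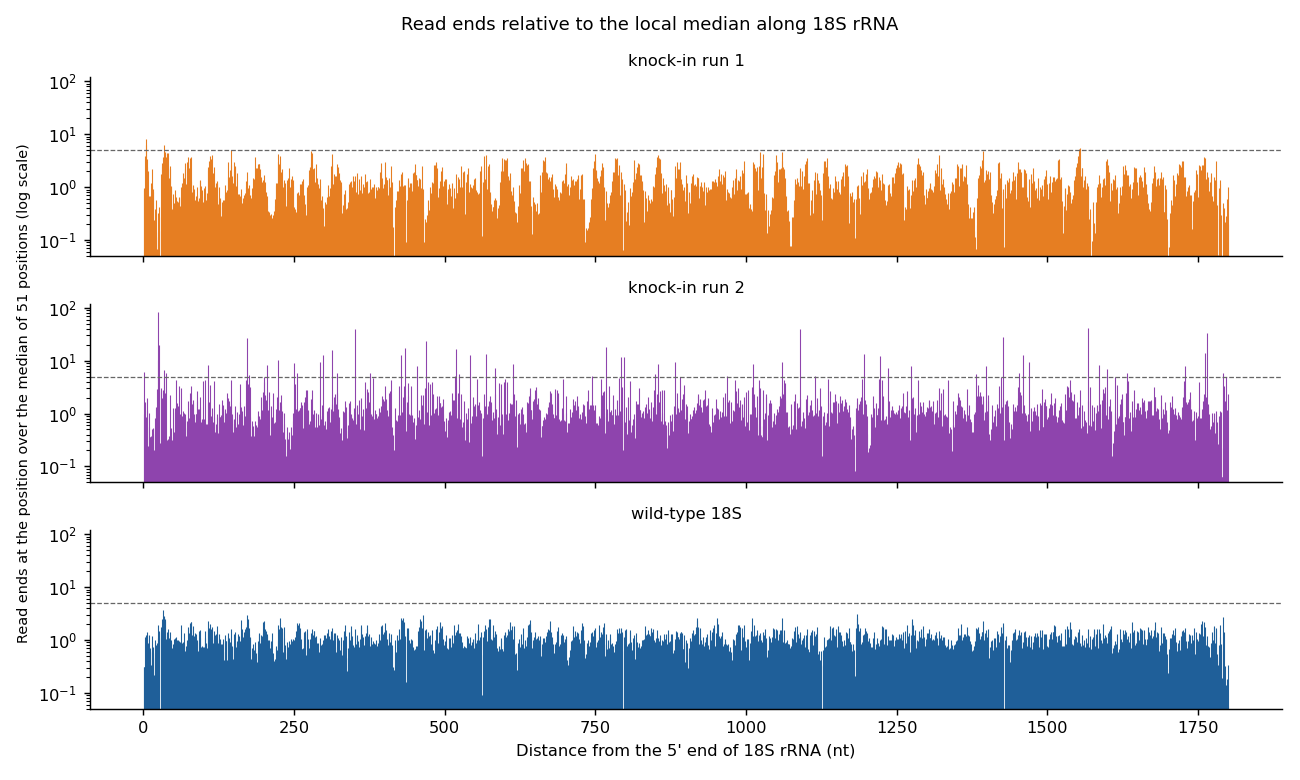
Read ends at each of the 1800 positions of 18S rRNA divided by the median of the 51 positions around it, on a log scale, against the distance from the 5' end, for knock-in run 1, knock-in run 2 and wild type; the dashed line marks 5 times the local median. Run 2 crosses the line at 62 positions, run 1 at 6 and wild type at 0.

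Unlisted positions with a high score, at least 0.8 with a flanking mean of at least 10 read ends, numbered 21 in the knock-in sample and 1 in wild type. The position in wild type, 1790 near the 3' end, was also high in the knock-in sample, at 0.966 against 0.834. Of the 21, 19 were high in run 2 and 5 in run 1. The knock-in sample was high and wild type below 0.5 at 16 positions. Of these, 15 lay within 6 nucleotides of a peak, as did 419 of all 1751 unlisted positions. They stood in groups beside single peaks, such as positions 20, 22 and 26 around the peak at 25 and positions 1566, 1569, 1570 and 1573 around the peak at 1568. The others beside peaks were positions 19, 352, 473, 474, 1091, 1092, 1424 and 1765, with scores of 0.812 to 0.891 in the knock-in sample and 0 to 0.402 in wild type. Position 474, for example, scored 0.835 in the knock-in sample, 0.260 in run 1 and 0.910 in run 2, and 0 in wild type. The exception, position 1791 near the 3' end, scored 0.884 in the knock-in sample from 7 read ends and 0.340 in wild type from 14. With the median of the neighbours the count was 5 in the knock-in sample and 0 in wild type. No position was high in wild type and below 0.5 in the knock-in sample.

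Coverage along 18S rRNA differed mildly between the samples. Of the 18 stretches of 100 nucleotides, positions 601 to 700 had the lowest ratio, with 5.49% of 18S read ends in the knock-in sample (6.0% in run 1 and 5.26% in run 2) and 8.71% in wild type, a log2 ratio of -0.67. Positions 1701 to 1800 had the highest, with 5.16% in the knock-in sample (4.05% in run 1 and 5.65% in run 2) and 3.67% in wild type, a log2 ratio of 0.49. The 95% Wilson intervals did not overlap in either stretch, and for positions 601 to 700 they ran from 5.43% to 5.55% in the knock-in sample and from 8.61% to 8.82% in wild type. They cover counting error alone, and those of run 1 and run 2 did not overlap in either stretch. For positions 601 to 700 they ran from 5.89% to 6.12% in run 1 and from 5.19% to 5.34% in run 2. At positions 801 to 900 the runs held 6.44% and 3.15%, beside 3.73% in wild type. Nothing is therefore read from the lack of overlap. The 18S reads of the wild-type 25S library held 4.70% at positions 601 to 700 and 6.15% at positions 1701 to 1800. Against that library the order was reversed in both stretches. The knock-out held 6.14% and 5.45% there.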

How the data were processed

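RiboMeth-seq reads of yeast RNA were deposited as tracks along the rRNA. The submitters' processing notes name cutadapt 1.2 (an adapter trimmer) and Bowtie2 2.1.0 (an aligner). Not given in the sources used here were the build, the options and the handling of reads that match several rDNA copies. Each file held 3 tracks of counts and 3 tracks of scores in 1 column. Per the file headers the counts are the authors' read ends without normalization (3' ends, 5' ends and their sum), and the authors computed the scores, of which only Score A is quoted here. The sum track was used.

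Scores, counting intervals (Clopper-Pearson for the position against its neighbours, combined by the MOVER method for differences) and shares were computed from the counts with Python 3.11.15, numpy 2.4.6 and scipy 1.17.1, and figures were drawn with matplotlib 3.10.9. The score calculation was tested on simulated data with an even mean count along 18S rRNA, apart from the protected positions. That test did not cover uneven counts or peaks. Positions without 6 neighbours on each side got no score. Site lists came from general knowledge of yeast rRNA, and all 16 names of box C/D guides matched the R64 gene table. Sites, lists and rules were chosen with earlier results of these data known. The text gives full values for called ribose sites, for the 4 with the largest and the 4 with the smallest difference, for the 4 pseudouridines highest in wild type, and for the 5 highest and 5 lowest positions past 2-fold in both runs. Depth on 18S rRNA was 517732 read ends in the knock-in sample and 283160 in wild type, beside 214756 in the knock-out and 30674 in the wild-type 25S library, and the width of a score's interval depends on the read ends at the position and its neighbours. Alternatives were 3' or 5' ends alone, single runs, 2 neighbours, equal weights, negative scores kept, other limits, filters and scalings, and the knock-out as reference. The median of the neighbours, the 18S reads of the wild-type 25S library as reference, run 1 against run 2 and a call limit from each class's own runs were chosen after seeing the data. No nucleotide sequence was used here.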

Additional observations from a re-analysis of the deposited data

How the results depend on the processing

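No paired analysis was possible because each group held 1 sample. The count of ribose sites called, 1 (Am420), was 2 with run 1 alone, 2 with run 2 alone, 2 with 2 neighbours on each side, 2 with the knock-out as reference, 3 with the 18S reads of the wild-type 25S library as reference, 6 with the counting interval alone and 0 with the limit set at the largest run difference at a ribose site. With 3' ends alone, 5' ends alone, equal weights, negative scores kept and the median of the neighbours the count was 1. That 1 site was Am420 in each of these settings except 3' ends alone, where it was Um578. The difference at Am420 ranged from -0.296 to -0.134 over 10 alternatives and passed the limit in 9. Um578 passed it in 5 of 10. The 10 leave out the settings that changed only the limit. Among those, Am420 was called with the counting interval alone and not with the limit at the largest run difference. Keeping negative scores could not change a ribose site, since none scored below 0. Cm414 changed sign and was called higher with the 18S reads of the wild-type 25S library as reference, at 0.264, where that library had 3 read ends or fewer at each ribose site. The cause was not tested.

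The 420 positions past 2-fold were 649 with run 2 alone and 807 for run 1 against run 2. The 21 unlisted positions with a high score in the knock-in sample were 61 with 3' ends, 40 with 5' ends, 2 at a score of at least 0.9, 35 with 2 neighbours and 5 with the median of the neighbours. The 1 in wild type was 11 with 3' ends, 25 with 5' ends and 0 at a score of at least 0.9, with a flanking mean of at least 50 or with the median of the neighbours. The 1 in both was 7, 12 and 0, 0 and 0 under the same settings. The cause of these changes was not tested. With the limit set from the runs of their own class, the 6 pseudouridines called became 0 and the 1 base modification called became 0, as the limit is larger. Counting error was wider at some base modifications and pseudouridines than at ribose sites with fewer read ends. Wild-type intervals ran from 0.415 to 0.813 at m62A1782 (14 read ends) and from 0.134 to 0.448 at Psi1187 (85), against 0.917 to 1.000 at Am541 (1).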
